A study of Saccharomyces cerevisiae with 14 samples.

Results

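The glycolysis, fermentation and glycerol genes of budding yeast (Saccharomyces cerevisiae) are described here across 6 groups of arrays. They were chosen by name and grouped by role, without a threshold on any signal, and 31 of the 32 named genes have a probe set, out of 5449 genes with one. TDH2, the remaining gene, has no probe set in the annotation used and is not analysed here. All 31 passed the filter on low values, and each lay above the background level on all 14 arrays, so no gene of the set with a probe set was lost to the filter.

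Glycolysis turns a hexose sugar into pyruvate. In fermenting yeast pyruvate is decarboxylated to acetaldehyde and reduced to ethanol, which regenerates the NAD used in glycolysis. Glycerol is made in a side branch that also consumes NADH and protects the cell in strong osmotic conditions. Several steps are served by pairs of isozymes, of which one member is usually expressed at a high level on glucose and another is known to be repressed by glucose or induced by stress.

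Total RNA was measured on 14 Affymetrix Yeast 2.0 arrays in 3 experiments, each with its own wild type. Set1 is the methyltransferase that places methyl groups on lysine 4 of histone H3, and Jhd2 is a demethylase that removes them. The set1 deletion group (2 arrays) carries set1::KanMx together with his3-1 and leu2-0, and it is also met15-0 and ura3-0. Its wild type (2 arrays) is his3∆1 and le2∆0, also lys2∆0 and ura3∆0, and is marked TRP+, Met15+ and ADE+, so the labels give the deletion strain met15-0 and no lys2 allele, unlike that wild type. The jhd2 deletion group (3 arrays) carries jhd2::KanMX with his3∆1 and le2∆0, also lys2∆0 and ura3∆0, and its wild type (3 arrays) has the same 4 alleles with TRP+, MET15+ and ADE+. The overexpression group (2 arrays) has JHD2 overexpressed in a strain that also carries (jhd2∆::KanMx), with his3-1 and leu2-0, also lys2-0 and ura3-0, and its wild type (2 arrays) is labelled like that of the jhd2 experiment. The overexpression strain is therefore compared with cells that have JHD2 at its own locus, not with the deletion strain. For every array the labels give growth at 30 °C to an optical density (OD600) of 0.6 to 0.7 and 10 µg of total RNA. The sources used here name neither the promoter that drives JHD2 nor the growth medium. The labels call the replicates biological without saying that they are separate cultures, so a p-value measures only the spread between these samples.

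The targeted genes followed the labels. JHD2 gave signals of 3.22, 3.41 and 0.23 in the jhd2 deletion and 5207 and 6237 in the overexpression strain, and SET1 gave 1.13 and 3.31 in the set1 deletion. The median signal of the 5415 tested genes was 538.1 to 664.3 per array, and 98.0% to 99.9% of these genes lay above background. The 2 groups of the SET1 experiment had a-specific mating gene medians of 1008 to 1187, against 25.6 to 70.2 on the other arrays, so the 3 wild types do not share a mating type by these markers. The array's control genes are read at both ends, and their log2 3′/5′ signal ratio, a measure of RNA length and labelling, was 1.43 in the jhd2 deletion and 1.61 in its wild type on the replicate 3 arrays, against 0.57 to 0.65 on the other 4 arrays of that experiment. It was 1.63 and 1.56 in the overexpression group, against 1.00 and 0.75 in its wild type.

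Most of the set was bright on every array. Of the 31 genes, 20 lay among the brightest 10% of tested genes (542 genes), a statement on probe-set signal and not on transcript number. These 20 comprise HXK2 and GLK1 of the hexose kinases, all 5 genes from PGI1 to TPI1, and TDH1, TDH3, PGK1, GPM1, ENO1, ENO2 and CDC19 of lower glycolysis. They also include PDC1, ADH1 and ADH3 of the ethanol branch, the acetaldehyde dehydrogenase gene ALD6, and GPD1 and GPP1 of the glycerol branch. The other 11 are mostly the second isozymes of a step: HXK1, GPM2, GPM3, PYK2, PDC5, PDC6, ADH2, ADH5, ALD4, GPD2 and GPP2. Their signals ran from 34.3 for PDC6 on a jhd2-experiment wild-type array to 4937 for HXK1 on a SET1-experiment wild-type array. Several genes have close paralogs within the set, and none of the 31 probe sets carries the array's mark for sets that match related sequences. Cross-hybridisation between paralogs was not tested.

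**Figure D1:**
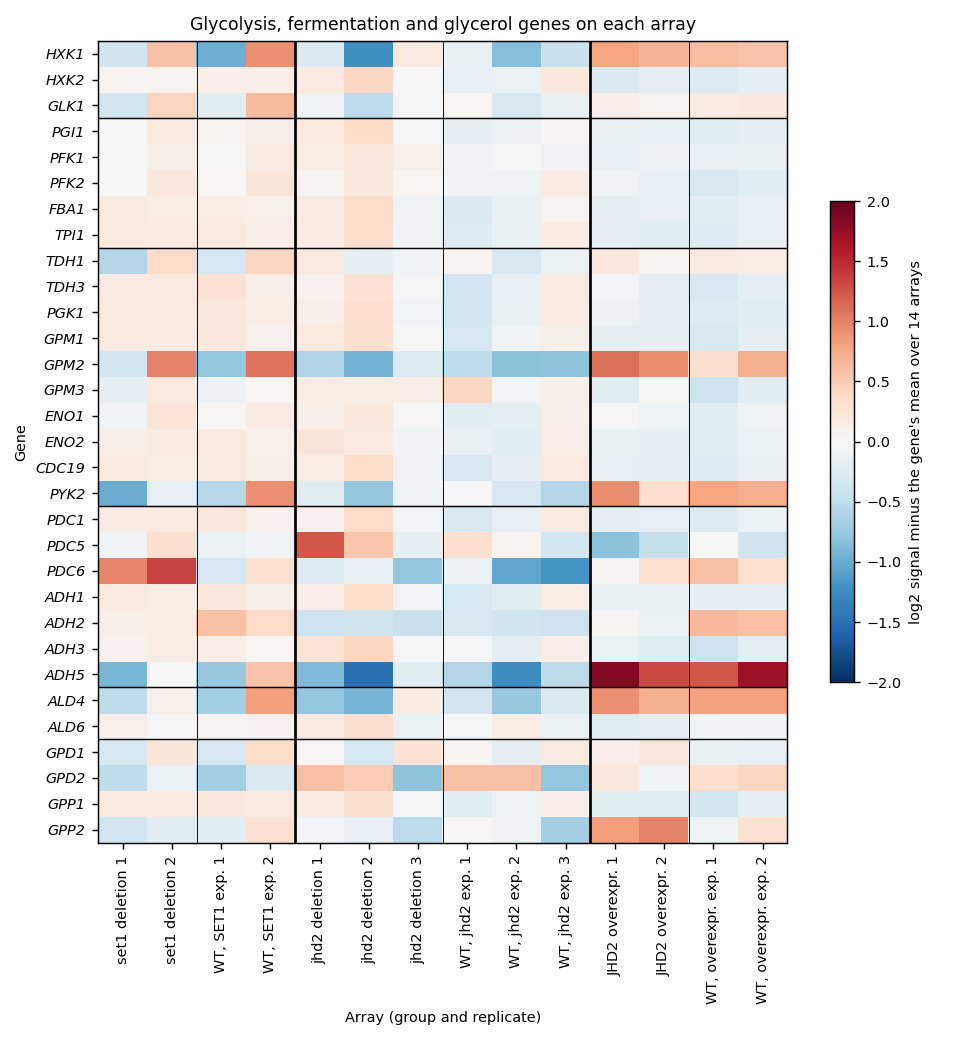
Log2 signal of each of the 31 genes (vertical axis, ordered by role) on each of the 14 arrays (horizontal axis, by group and replicate), minus the gene's mean over the 14 arrays. Red is above that mean and blue below it. ADH5, PDC6 and HXK1 have wide ranges over the 14 arrays, 326.6 to 3268 for ADH5, 34.3 to 201.1 for PDC6 and 1121 to 4937 for HXK1. PFK1 ranges from 4464 to 5792 and ADH2 from 76.8 to 164.1. Within groups, a different measure, PFK1 and ADH2 have the narrowest pooled standard deviations of the set, 0.066 and 0.079.

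Phosphorylation of the sugar is carried out by 3 hexose kinases. GLK1, the glucokinase gene, gave 2413 and 4251 in the set1 deletion and 2716 and 4862 in its wild type. It gave 2957, 2166 and 3051 in the jhd2 deletion and 3205, 2519 and 2833 in its wild type, and 3436 and 3273 in the overexpression strain and 3504 and 3602 in its wild type. All 3 altered strains thus overlapped their wild types or lay slightly below. HXK2 had its highest group mean in the jhd2 deletion and its lowest in the overexpression strain, 1.36-fold apart, while for HXK1 the overexpression strain was highest and the jhd2-experiment wild type lowest, 2.31-fold apart.

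Upper glycolysis splits the hexose into triose phosphates. PFK2, which encodes the beta subunit of phosphofructokinase, gave 5664, 6300 and 5625 in the jhd2 deletion and 5210, 5079 and 6161 in its wild type. TPI1, the triose phosphate isomerase gene, gave 8373, 9469 and 6995 in the jhd2 deletion and 6226, 6735 and 8369 in its wild type. The wild-type replicate 3 array was the brightest of its group for both. Over all 6 groups the 5 genes from PGI1 to TPI1 varied by 1.24- to 1.32-fold between the highest and the lowest group mean.

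Lower glycolysis yields ATP and pyruvate. TDH3, the main glyceraldehyde-3-phosphate dehydrogenase gene, gave 6297, 7263 and 5757 in the jhd2 deletion and 4551, 5306 and 6702 in its wild type. CDC19, the main pyruvate kinase gene, gave 7575, 8771 and 6520 in the jhd2 deletion and 5373, 6043 and 7766 in its wild type. Both had the dimmest deletion array and the brightest wild-type array in replicate 3, and so did the phosphoglycerate kinase gene PGK1 and the mutase gene GPM1. The bright genes of this step, TDH1, TDH3, PGK1, GPM1, ENO1, ENO2 and CDC19, varied by 1.21- to 1.38-fold between group means. GPM2 varied by 3.33-fold and PYK2 by 2.53-fold, both with the overexpression experiment highest.

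The ethanol branch held the widest range. ADH5 varied by 5.45-fold between its highest group, the overexpression strain, and its lowest, the jhd2 deletion, and PDC6 varied by 3.87-fold between the set1 deletion and the jhd2-experiment wild type. PDC1, the main pyruvate decarboxylase gene, varied by 1.30-fold, ADH1 by 1.28-fold and ADH3, the mitochondrial alcohol dehydrogenase gene, by 1.44-fold. In the glycerol branch GPP2 varied by 2.31-fold and GPD2 by 1.82-fold, against 1.26-fold for GPD1 and 1.38-fold for GPP1.

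The spread between replicates was wider among the dimmer genes. The median pooled standard deviation of log2 signal within groups was 0.15 over the 20 bright genes, 0.51 over the other 11 and 0.20 over all tested genes. HXK1, a hexokinase gene known to be glucose-repressed, had the widest spread at 0.67, followed by GPM2 at 0.62, GPD2 and ADH5 at 0.58, ALD4 at 0.52 and PYK2 at 0.51. PFK1, which encodes the alpha subunit of phosphofructokinase, had the narrowest at 0.066. ADH2, one of the 11, had the next narrowest at 0.079. By mean signal ADH2 was at the 8.83 percentile of tested genes and HXK1 at the 88.9 percentile, so the spread did not follow brightness gene by gene.

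The replicates of the SET1 experiment were far apart for several genes. HXK1 gave 1984 and 3934 in the set1 deletion, against 1333 and 4937 in its wild type. ALD4, the mitochondrial acetaldehyde dehydrogenase gene, gave 1257 and 1925 in the set1 deletion, against 1113 and 3148 in its wild type. PYK2, the minor pyruvate kinase gene, gave 391 and 692 in the set1 deletion, against 520 and 1456 in its wild type. In each of these the replicate 2 arrays of both strains were the brighter ones. In the wild type 5 of 31 genes (16.1%) were over 2-fold brighter on replicate 2 than on replicate 1, against 4.41% of all tested genes, and these 5 were HXK1, GPM2, PYK2, ADH5 and ALD4. In the set1 deletion 1 of 31 (3.23%) passed that fold, against 1.39% of all tested genes. HXK2, the main glucose-grown hexokinase gene, gave 5717 and 5690 in the set1 deletion, against 5926 and 5926 in its wild type, so its replicates were level. Among the bright genes GLK1, TDH1 and GPD1 also differed, with replicate 2 over replicate 1 at 1.76, 1.95 and 1.52 times in the set1 deletion, against 1.79, 1.72 and 1.63 times in its wild type.

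The first comparison asks what loss of Set1 does to these genes. In the set1 deletion 0 of 31 genes passed the test (limma, Benjamini-Hochberg adjusted p under 0.05), while 14 of all tested genes did, which is 0.259% (0.166% higher and 0.0923% lower). At an unadjusted p under 0.05 there was 1 gene of the set, PDC6, against 8.33% of all tested genes. The median log2 change was -0.01 over the set and 0.02 over all tested genes, with 15 genes above 0 and 16 below, against 54.8% of all tested genes above 0. The 5 genes of upper glycolysis spanned -0.05 to 0.03.

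PDC6 encodes the minor pyruvate decarboxylase. Its signals were 155.2 and 201.1 in the set1 deletion, against 62.4 and 96.8 in wild type, a log2 change of 1.18 ± 0.37 (SE, n = 2 each, limma adjusted p = 0.313). Both deletion arrays lay above both wild-type arrays, and both were also above the other 10 arrays, where PDC6 ranged from 34.3 to 118.7. The groups of 3 other genes did not overlap in the opposite direction. ADH2, the glucose-repressed alcohol dehydrogenase gene that serves ethanol use, gave 113.2 and 115.3 in the set1 deletion, against 157.7 and 136.0 in wild type (-0.36 ± 0.18, limma adjusted p = 0.645). GPP2, a glycerol phosphatase gene known to be induced by osmotic stress, gave 1364 and 1535 in the set1 deletion, against 1537 and 2211 in wild type (-0.35 ± 0.24, limma adjusted p = 0.812). HXK2 was the other gene, at -0.06 ± 0.14. Such separation is common with 2 arrays a group: 1 gene of the set lay wholly above and 3 wholly below, against 19.4% and 17.0% of all tested genes.

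**Figure D2:**
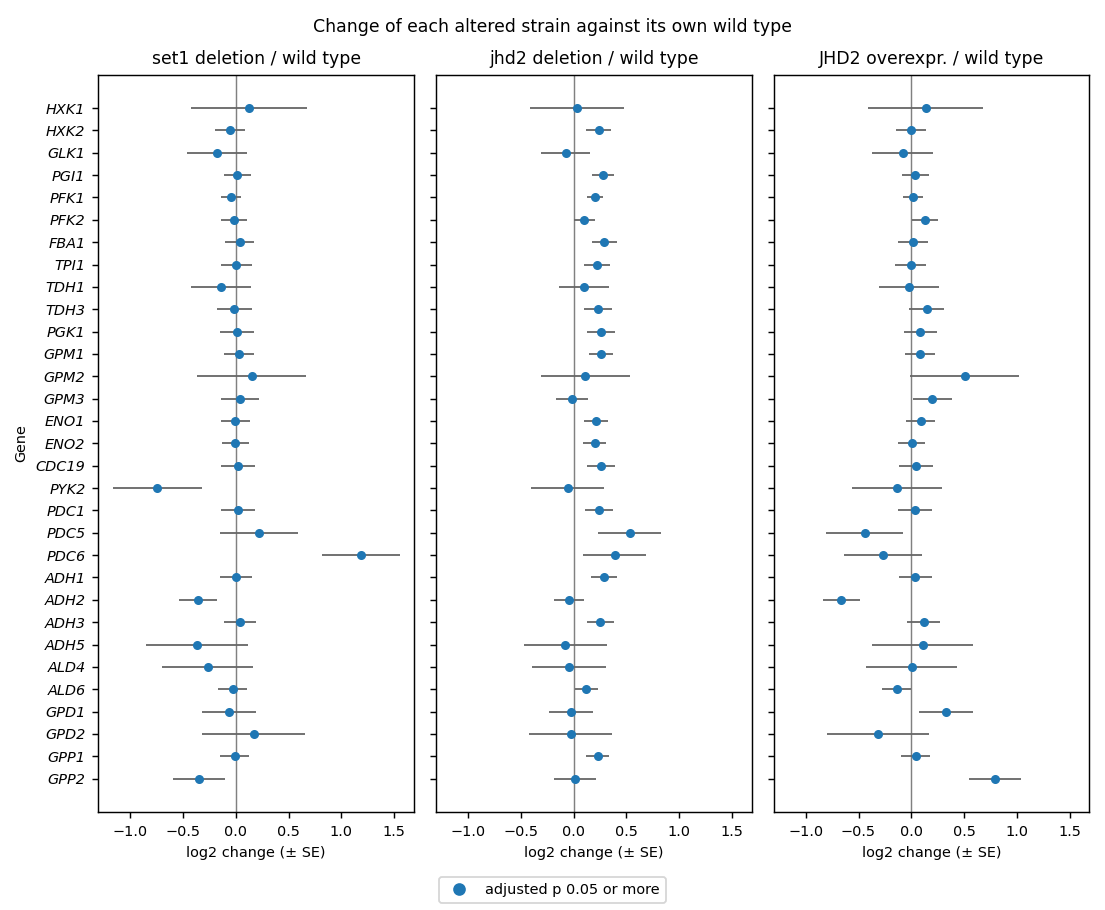
Log2 change of each of the 31 genes (vertical axis) in each altered strain over its own wild type (horizontal axis, 3 panels), as limma estimates with bars of 1 SE. No point passed an adjusted p of 0.05. The jhd2 deletion panel has most points to the right of 0, with a median of 0.21, while the set1 deletion and overexpression panels centre near 0, at -0.01 and 0.04.

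The jhd2 deletion asks what loss of the demethylase does. Here 0 of 31 genes passed the test (limma adjusted p under 0.05), against 2 of all tested genes (0.0369%). At an unadjusted p under 0.05 there were 5 genes, PGI1, PFK1, FBA1, GPM1 and ADH1, all above wild type, against 1.83% of all tested genes, and each had a limma adjusted p of 1.00. The median log2 change of the set was 0.21, with 23 genes above 0 and 8 below, against a median of -0.04 over all tested genes and 37.2% of them above 0. The size of this shift went with brightness. It was 0.23 over the 20 bright genes of the set and -0.02 over the other 11. Among the 100 other genes in the brightest 2% of the array the median was 0.25, and all 100 lay above 0. The part of brightness in the change of the set was not tested.

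The shift did not hold in all 3 same-numbered pairs of arrays. FBA1, which encodes aldolase, gave 6926, 7955 and 5816 in the jhd2 deletion, against 4978, 5478 and 6410 in wild type (0.29 ± 0.12). ADH1, the main ethanol-forming alcohol dehydrogenase gene, gave 6458, 7537 and 5648 in the jhd2 deletion, against 4597, 5068 and 6484 in wild type (0.29 ± 0.13). PGI1, which encodes phosphoglucose isomerase, gave 7285, 8367 and 6258 in the jhd2 deletion, against 5594, 5850 and 6572 in wild type (0.28 ± 0.11). In all 3 genes the deletion array was brighter in pairs 1 and 2 and dimmer in pair 3, so the groups overlapped. The 20 bright genes of the set had median pair changes of 0.39, 0.44 and -0.15, with 18, 18 and 5 genes above 0. The 100 other genes in the brightest 2% had medians of 0.36, 0.55 and -0.19, with 100, 100 and 5 above 0. In each pair the median of the bright genes of the set had the sign of the median of these other bright genes.

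The 11 dimmer genes had median pair changes of -0.14, -0.08 and 0.29, with 2, 3 and 9 genes (18.2%, 27.3% and 81.8%) above 0. All tested genes had medians of -0.07, -0.12 and 0.03, with 35.6%, 27.9% and 56.2% above 0, so these medians had the signs of the whole array in each pair. HXK1 gave 2134, 1121 and 2956 in the jhd2 deletion, against 2364, 1448 and 1921 in wild type, or pair changes of -0.15, -0.37 and 0.62. ALD4 gave 1052, 937 and 2007 in the jhd2 deletion, against 1388, 1064 and 1469 in wild type, or pair changes of -0.40, -0.18 and 0.45. PYK2 had pair changes of -0.22, -0.44 and 0.50, and ADH5 of -0.30, -0.22 and 0.29. These 4 genes, GPM2 and GPP2 were below wild type in pairs 1 and 2 and above it in pair 3, and the other 5 dimmer genes (GPM3, PDC5, PDC6, ADH2 and GPD2) were not.

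**Figure D3:**
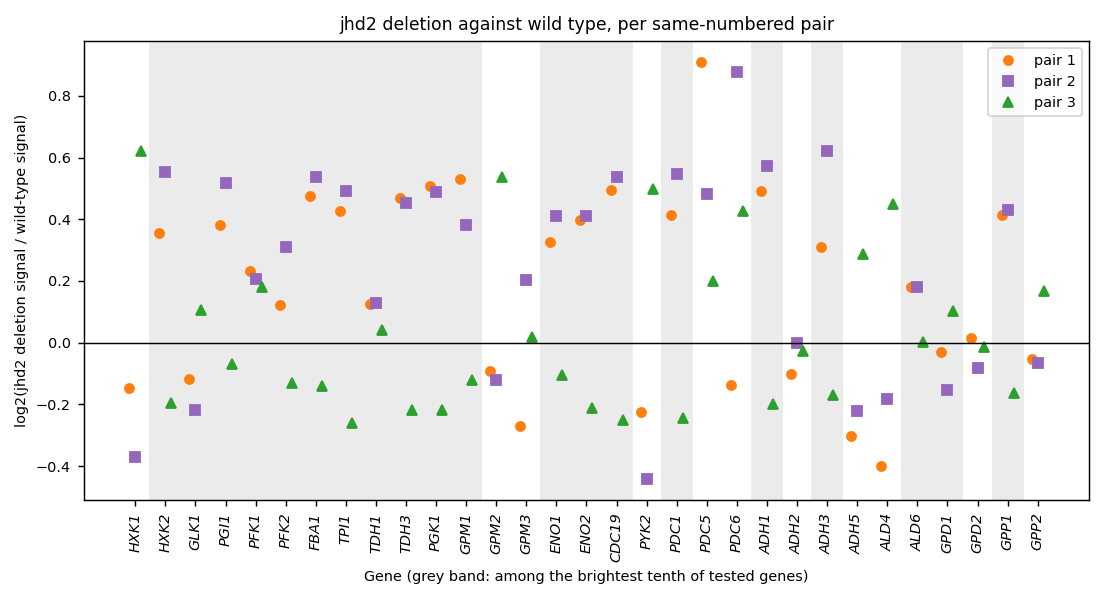
Log2 ratio of the jhd2 deletion signal over the wild-type signal (vertical axis) for each of the 31 genes (horizontal axis) in the 3 same-numbered pairs of arrays. Grey bands mark the 20 genes among the brightest 10% of tested genes. Within the bands pairs 1 and 2 are mostly above 0 and pair 3 mostly below, with medians of 0.39, 0.44 and -0.15.

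Few genes kept 1 sign in all pairs. PFK1 gave 5574, 5792 and 5396 in the jhd2 deletion, against 4740, 5025 and 4762 in wild type (0.21 ± 0.08). It was the 1 gene of the set whose groups did not overlap, where 1.22% of all tested genes lay wholly above and 3.56% wholly below. PDC5, a pyruvate decarboxylase gene known to be raised when PDC1 is lost, gave 1420, 882 and 528 in the jhd2 deletion, against 755, 631 and 460 in wild type (0.53 ± 0.30, limma adjusted p = 1.00). PDC5 had the largest estimate of the set, with pair changes of 0.91, 0.48 and 0.20, and its groups overlapped. TDH1 and ALD6 were also above wild type in each pair and ADH2 below it, at changes of 0.10, 0.12 and -0.04 over all pairs. GPD2, the glycerol-3-phosphate dehydrogenase gene known to respond to lack of oxygen, was low on both replicate 3 arrays. It gave 780.6, 729.9 and 294.4 in the jhd2 deletion, against 772.0, 773.1 and 297.4 in wild type.

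Without both replicate 3 arrays, a setting chosen after the data were seen, 13 genes of the set were higher in the jhd2 deletion and 0 lower, all 13 among the 20 bright ones. They were HXK2, PGI1, FBA1, TPI1, TDH3, PGK1, GPM1, ENO2, CDC19, PDC1, ADH1, ADH3 and GPP1, from 0.40 for ENO2 to 0.53 for ADH1 (limma adjusted p 0.0112 to 0.0476). In that setting 162 of all tested genes were higher, which is 2.99%. Of these, 159 lay in the brightest 10%, and 87 of the 100 other genes in the brightest 2% were among them. The median of the set was then 0.37. With the 3′/5′ ratio as a covariate and all arrays kept, 0 genes of the set passed (limma) and the median was 0.20. That ratio was 0.58, 0.57 and 1.43 in the jhd2 deletion, against 0.59, 0.65 and 1.61 in its wild type. A covariate so alike in both groups can move their difference only little. With the pairs as a block 0 genes passed too. Quantile normalization, which gives every array the same distribution of signals, brought the median to 0.03, with 0 genes called (limma).

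The overexpression experiment asks what excess Jhd2 does. In the overexpression strain 0 of 31 genes passed the test (limma adjusted p under 0.05), against 28 of all tested genes, which is 0.517% (0.166% higher and 0.351% lower). At an unadjusted p under 0.05 there were 2, ADH2 and GPP2, against 19.4% of all tested genes. The median log2 change was 0.04 over the set and 0.00 over all tested genes, with 21 genes above 0 and 10 below, against 50.1% of all tested genes above 0. The 5 genes of upper glycolysis lay between -0.01 and 0.13. Of the 31 genes, 9 lay wholly above and 5 wholly below wild type, against 31.1% and 31.9% of all tested genes.

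GPP2 had the largest estimate. Its signals were 3139 and 3551 in the overexpression strain, against 1686 and 2193 in wild type, a log2 change of 0.80 ± 0.24 (SE, n = 2 each, limma adjusted p = 0.136). Both overexpression arrays lay above all other 12 arrays, on which GPP2 ranged from 1110 to 2211. With the 3′/5′ ratio as a covariate the GPP2 estimate was 1.25 (limma adjusted p = 0.00707). That ratio was 1.63 and 1.56 in the overexpression strain and 1.00 and 0.75 in its wild type. The covariate therefore cannot tell ratio and strain apart within this experiment. With only the 4 arrays of the experiment GPP2 passed as well (limma adjusted p = 0.0057). GPD1 and ADH2 also passed in that smaller fit (limma adjusted p = 0.0241 and 0.0446), in which 17.6% of all tested genes were called. Without both replicate 3 arrays of the jhd2 experiment GPP2 and ADH2 passed (limma adjusted p = 0.0203 and 0.0234), against 12.9% of all tested genes. GPD1, which encodes the osmotically induced glycerol-3-phosphate dehydrogenase of the preceding step, gave 3508 and 3749 in the overexpression strain, against 2897 and 2872 in wild type (0.33 ± 0.26, limma adjusted p = 0.497). The GPD1 groups did not overlap, but GPD1 ranged from 2505 to 4117 in the other experiments. GPP1, the phosphatase gene used in normal growth, was at 0.04 ± 0.14, and GPD2 at -0.31 ± 0.48.

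ADH2 lay on the other side of 0. It gave 108.8 and 95.4 in the overexpression strain, against 164.1 and 158.5 in wild type (-0.66 ± 0.18, limma adjusted p = 0.106). The groups did not overlap, and the overexpression values were between those of the jhd2 experiment, 76.8 to 83.9, and those of the SET1 experiment, 113.2 to 157.7. PDC5 gave 340 and 433 in the overexpression strain, against 596 and 457 in wild type (-0.44 ± 0.37). Among the wide-spread genes, ADH5 gave 3268 and 2279 in the overexpression strain, against 2171 and 2947 in wild type (0.11 ± 0.48). HXK1 gave 4500 and 4172 in the overexpression strain, against 4000 and 3888 in wild type (0.14 ± 0.55). The strains overlapped for ADH5 and not for HXK1, and both strains were above all arrays of the other experiments for ADH5.

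Interaction terms compared the changes of the altered strains with each other. For the jhd2 deletion change minus the overexpression change, 0 of 31 genes passed (limma), against 0.0923% of all tested genes, and 2 genes had an unadjusted p under 0.05, against 11.7%. These were ADH2 (0.62 ± 0.23) and GPP2 (-0.78 ± 0.32). For the set1 deletion change minus the jhd2 deletion change, 0 passed (limma), against 0.0739%, and 0 had an unadjusted p under 0.05, against 4.56%. For the set1 deletion change minus the overexpression change, 0 passed (limma), against 0.259%, and 2 had an unadjusted p under 0.05, against 12.7%. These were PDC6 (1.45 ± 0.52, limma adjusted p = 0.292) and GPP2 (-1.15 ± 0.35, limma adjusted p = 0.232).

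Calls within the set came from comparisons between the 3 wild types. These comparisons share arrays, and experiment and any batch cannot be told apart in them. By the marker genes the overexpression and jhd2-experiment wild types have the same mating type, with alpha-specific medians of 2686 to 2849 and 3335 to 3776, while mating type also differs in the comparisons with the SET1-experiment wild type, at 114.4 and 133.0. In the overexpression wild type against the jhd2-experiment wild type, 4 of 31 genes rose and 0 fell (limma adjusted p under 0.05), against 582 of all tested genes higher (10.7%) and 298 lower (5.5%). The share of the set that was called, 4 of 31, was near the 16.3% of all tested genes called. At an unadjusted p under 0.05 there were 8, against 32.6% of all tested genes. All 4 are among the 11 dimmer genes, and 3 of them belong to the ethanol branch. The split over all genes depends on scaling: quantile normalization gave 406 higher (7.5%) and 472 lower (8.72%), and median centring 436 higher (8.05%) and 558 lower (10.3%).

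ADH5, an alcohol dehydrogenase gene, lies on chromosome II at 533762 to 534817 of assembly R64. It gave 2171 and 2947 in the overexpression wild type, against 608, 380 and 639 in the jhd2-experiment wild type, a log2 difference of 2.26 ± 0.44 (limma adjusted p = 0.00514). The groups did not overlap, and the overexpression strain was as high as its wild type. ALD4, on chromosome XV at 1039840 to 1041399, gave 3124 and 3130 in the overexpression wild type, against 1388, 1064 and 1469 in the jhd2-experiment wild type (1.27 ± 0.39, limma adjusted p = 0.0463). Those groups did not overlap either, but the ALD4 call was lost in 10 of the 14 fits that left out 1 array, with an adjusted p of up to 0.22. Of those 14 fits, ADH5 lost its call in the 1 without replicate 2 of the overexpression wild type (limma adjusted p = 0.0584).

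ADH2, on chromosome XIII at 873291 to 874337, had the most even values. It gave 164.1 and 158.5 in the overexpression wild type, against 83.9, 79.0 and 78.2 in the jhd2-experiment wild type (1.01 ± 0.16, limma adjusted p = 0.00177). All 6 arrays of the jhd2 experiment were below all 8 others. PDC6, on chromosome VII at 651290 to 652981, gave 118.7 and 96.7 in the overexpression wild type, against 72.3, 38.4 and 34.3 in the jhd2-experiment wild type (1.23 ± 0.34, limma adjusted p = 0.0276). The PDC6 call was lost in 4 of the 14 fits that left out 1 array, with an adjusted p of up to 0.211, and the ADH2 call in 0. With quantile normalization ADH2 was at 0.49 and PDC6 at 0.60, and neither passed.

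The set held 3 other genes with estimates above 1 in this comparison that did not pass. HXK1 gave 4000 and 3888 in the overexpression wild type, against 2364, 1448 and 1921 in the jhd2-experiment wild type (1.07 ± 0.50, limma adjusted p = 0.158). GPM2, a phosphoglycerate mutase homolog of uncertain activity, gave 406.3 and 532.6 in the overexpression wild type, against 228.4, 184.1 and 185.8 in the jhd2-experiment wild type (1.23 ± 0.47, limma adjusted p = 0.0929). PYK2 gave 1345 and 1287 in the overexpression wild type, against 780, 617 and 517 in the jhd2-experiment wild type (1.06 ± 0.39, limma adjusted p = 0.0798). In all 3 the groups did not overlap. In this comparison 9 genes of the set lay wholly above and 5 wholly below, against 31.7% and 22.9% of all tested genes. The median difference was -0.11 over the 20 bright genes and 1.06 over the other 11, against 0.07 over all tested genes and -0.19 over the brightest 10%. Of the set, 11 genes lay above 0, against 56.3% of all tested genes.

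**Figure D4:**
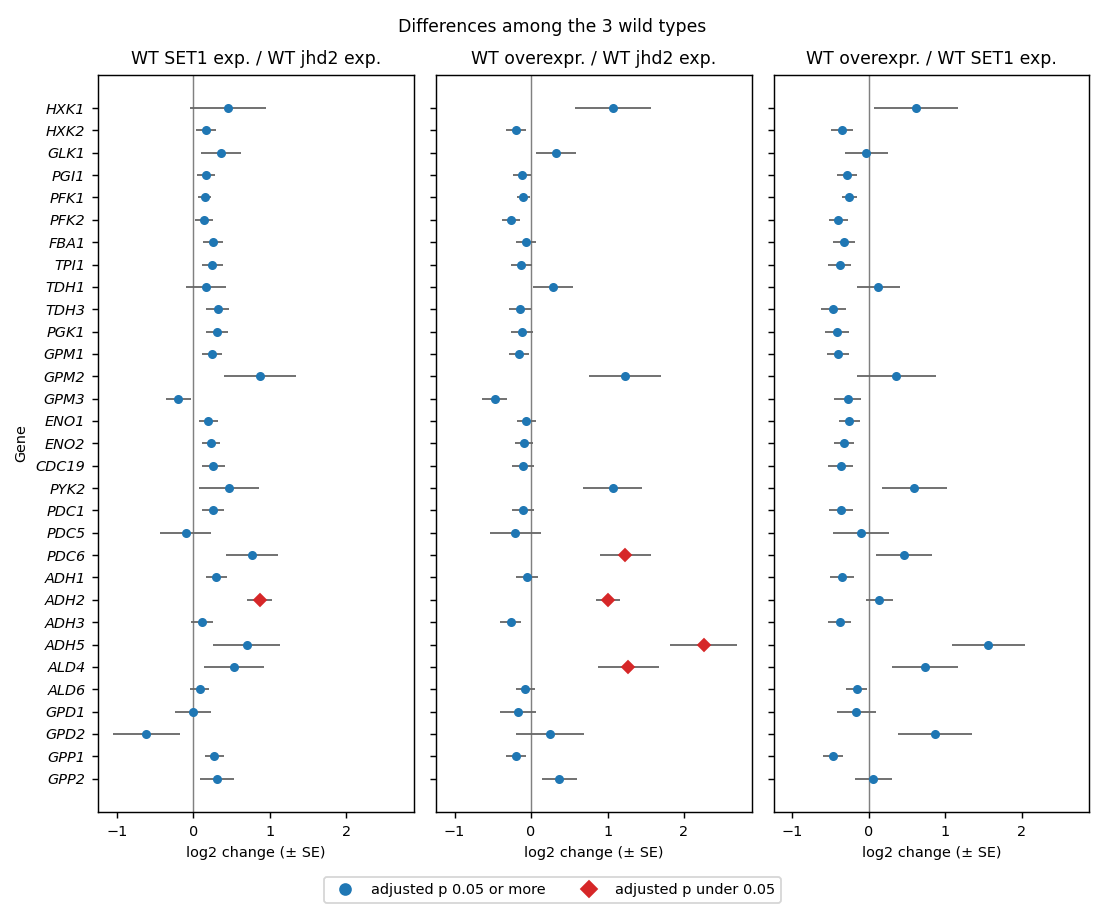
Log2 difference of each of the 31 genes (vertical axis) between the wild types of the 3 experiments (horizontal axis, 3 panels), as limma estimates with bars of 1 SE. Red diamonds passed an adjusted p of 0.05: ADH2 in the first panel and PDC6, ADH2, ADH5 and ALD4 in the second. In the third panel 21 genes lie below 0.

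In the SET1-experiment wild type against the jhd2-experiment wild type, 1 of 31 genes rose and 0 fell (limma adjusted p under 0.05), against 0.388% of all tested genes called (0.24% higher and 0.148% lower). It was ADH2, at 157.7 and 136.0 in the SET1-experiment wild type, against 83.9, 79.0 and 78.2 in the jhd2-experiment wild type (0.87 ± 0.16, limma adjusted p = 0.0446). That call was lost in 13 of the 14 fits that left out 1 array, with an adjusted p of up to 0.159. The median difference of the set was 0.25, with 27 genes above 0 where 49.6% of all tested genes were, against -0.00 over all tested genes and 0.14 over the 100 other genes in the brightest 2%. In this comparison 5 genes of the set lay wholly above and 0 wholly below, against 12.9% and 13.1% of all tested genes. At an unadjusted p under 0.05 there were 2, ADH2 and PDC6, against 13.5%. Without both replicate 3 arrays of the jhd2 experiment 8 genes passed (limma), 7 higher and 1 lower, against 2.53% of all tested genes. The share called among other bright genes in that setting is not given here, so the part of brightness was not tested.

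In the overexpression wild type against the SET1-experiment wild type, 0 of 31 genes passed (limma adjusted p under 0.05), against 8.11% of all tested genes (5.24% higher and 2.86% lower). At an unadjusted p under 0.05 there were 16, against 27.2% of all tested genes. The median difference was -0.26 over the set, -0.28 over the brightest 10% and 0.10 over all tested genes. GPP1 gave 4141 and 4691 in the overexpression wild type, against 6198 and 6002 in the SET1-experiment wild type (-0.47 ± 0.14, limma adjusted p = 0.0552). ADH5 was the widest on the other side, at 1.56 ± 0.48 (limma adjusted p = 0.065). It was 0.90 without replicate 1 and 2.23 without replicate 2 of the SET1-experiment wild type (limma adjusted p = 0.324 and 0.0189). In this comparison 3 genes of the set lay wholly above and 18 wholly below, against 34.3% and 22.1% of all tested genes, and 10 genes lay above 0, against 59.9%. Without both replicate 3 arrays of the jhd2 experiment 17 genes passed (limma), 2 higher and 15 lower, against 21.3% of all tested genes in either direction. The share called among other bright genes in that setting is not given here. The 100 other genes in the brightest 2% were all below 0, with a median of -0.33.

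**Figure D5:**
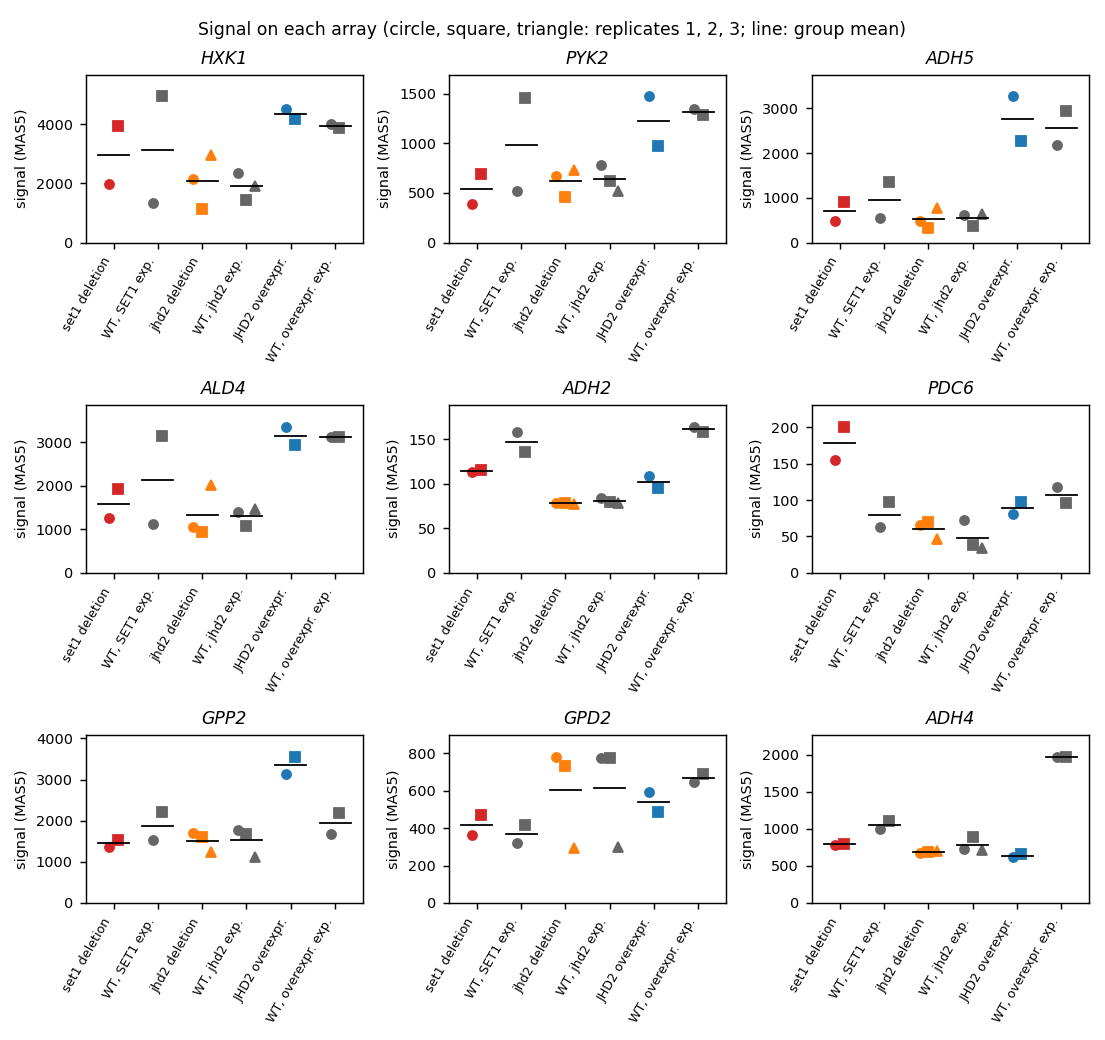
Signal on a linear scale from 0 (vertical axis) of 9 genes in the 6 groups (horizontal axis), 1 point per array with the group mean as a line and each altered strain left of its wild type. ADH5 and ALD4 are high in both groups of the overexpression experiment, GPP2 is highest at 3139 and 3551 in the overexpression strain, GPD2 is low on both replicate 3 arrays of the jhd2 experiment, and ADH4 is high in the overexpression wild type alone.

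The neighbouring pathways were described with 5 lists of regulators and enzymes. In the set1 deletion and in the jhd2 deletion 0 of the 58 genes of these lists passed (limma), against 0.259% and 0.0369% of all tested genes. There were 5 (8.62%) at an unadjusted p under 0.05 in the set1 deletion and 0 in the jhd2 deletion, against 8.33% and 1.83% of all tested genes. In the overexpression strain 14 of the 58 (24.1%) had an unadjusted p under 0.05, against 19.4% of all tested genes. By adjusted p 1 of the 58 fell (1.72%, limma), against 0.351% of all tested genes lower, and it was among the 11 other alcohol, aldehyde and acetate enzymes. This was ADH4, an alcohol dehydrogenase gene known to be induced when zinc is scarce. ADH4 gave 622 and 658 in the overexpression strain, against 1966 and 1973 in its wild type (-1.62 ± 0.13, limma adjusted p = 5.6e-05). The overexpression values were below those of all other arrays, 677.9 to 1973, and it is the wild type of that experiment that stood apart. ADH4 was 1.35 ± 0.12 higher in the overexpression wild type than in the jhd2-experiment wild type (limma adjusted p = 1.95e-05) and 0.90 ± 0.13 higher than in the SET1-experiment wild type (limma adjusted p = 0.00125).

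In the overexpression wild type against the jhd2-experiment wild type, 14 of the 58 list genes rose and 2 fell (27.6% called), against 16.3% of all tested genes called, and the difference between these shares was not tested. Of 12 genes of gluconeogenesis and pyruvate use, 3 rose and 0 fell (limma). PCK1, the phosphoenolpyruvate carboxykinase gene of gluconeogenesis, gave 269.2 and 177.1 in the overexpression wild type, against 82.6, 75.7 and 110.2 in the jhd2-experiment wild type (1.31 ± 0.25, limma adjusted p = 0.00463). The pyruvate carboxylase genes PYC1 and PYC2 also rose. Of 11 other alcohol, aldehyde and acetate enzymes, 4 rose and 0 fell. ALD3, a cytosolic aldehyde dehydrogenase gene, gave 505.5 and 330.8 in the overexpression wild type, against 85.4, 42.7 and 49.1 in the jhd2-experiment wild type (2.86 ± 0.48, limma adjusted p = 0.00229). ADH4, ALD2 and the acetyl-CoA synthetase gene ACS1 (1.16 ± 0.20) also rose.

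In the same comparison 10.7% of all tested genes were higher and 5.5% lower, and the counts of each list were not tested against these shares. Of 12 genes of glycerol use, transport and osmotic signalling, 3 rose and 0 fell (limma). GUT1, the glycerol kinase gene, gave 765.0 and 655.7 in the overexpression wild type, against 355.7, 305.7 and 177.9 in the jhd2-experiment wild type (1.40 ± 0.27, limma adjusted p = 0.00553). GUT2, the mitochondrial glycerol-3-phosphate dehydrogenase gene, was at 1.12 ± 0.26 and GCY1, a glycerol dehydrogenase gene, at 1.81 ± 0.49. Of 12 glycolytic regulators 1 rose, a share below that of all tested genes, the glucose repressor gene MIG1 (0.96 ± 0.22, limma adjusted p = 0.0144). Of 11 genes of the pentose phosphate pathway 3 rose and 2 fell. TKL2, NQM1 and GND2, the second isozymes of transketolase, transaldolase and phosphogluconate dehydrogenase, were at 1.44 ± 0.21, 2.92 ± 0.55 and 1.47 ± 0.24. RPE1, the ribulose phosphate epimerase gene, was one of those that fell, at -0.52 ± 0.10.

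In the overexpression wild type against the SET1-experiment wild type 7 of the 58 list genes were called (12.1%), against 8.11% of all tested genes. PYC1, PYC2, ADH4, ALD3, TKL2 and GND2 rose and RPE1 fell (limma). ALD3 was at 2.92 ± 0.53 and RPE1 at -0.63 ± 0.10. In the SET1-experiment wild type against the jhd2-experiment wild type 1 of the 58 rose (1.72% called), against 0.388% of all tested genes. This was PCK1, at 226.1 and 225.4 in the SET1-experiment wild type, against 82.6, 75.7 and 110.2 in the jhd2-experiment wild type (1.35 ± 0.25, limma adjusted p = 0.0398).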

How the data were processed

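Gene-level signals came from 14 arrays. The deposited values are linear intensity values, which the authors made with MAS5, per the submitters' processing notes. The values themselves show every array scaled to a trimmed mean of 500.2 to 500.3. The sources used here give no software version and no scaling target. Gene names came from the platform annotation and RefSeq assembly R64.

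Of 10928 probe sets 5498 matched 1 S. cerevisiae gene. A gene with several (47 genes) was read from the brightest, and 1746 S. pombe probe sets set the background, 7.28 to 16.7 per array (95th percentile). The 34 genes whose mean log2 signal lay below the 95th percentile of those foreign probe sets were left out and 5415 tested. Values under 1 were set to 1 and put on the log2 scale. Group means were fitted to all 14 arrays with limma 3.58.1 (R 4.3.3, intensity trend). P-values were two-sided and Benjamini-Hochberg adjusted within each contrast over all tested genes. Errors are standard errors of that model. The fit was tested on simulated data. In the jhd2 experiment arrays with the same number moved together around their group means (r = 0.64, 0.62 and 0.69 across genes). Its same-numbered arrays were also described as pairs, by number only, while the main fit used group means without pairs. The SET1 numbers correlated at 0.73 and were not described as pairs, with 2 arrays a group. Both replicate 3 arrays of the jhd2 experiment had a raised 3′/5′ ratio, and an outlier shared by both groups moves the replicate 1 and 2 deviations the same way. The r values of the jhd2 experiment thus cannot show that replicates 1 and 2 are matched by number. The number of arrays limits the precision.

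All members of the set are reported, and of each pathway list at most the 4 called genes with the smallest adjusted p per contrast. The members and lists were chosen with earlier results of these data known. Alternatives were quantile normalization, median centring, a pseudocount of 32, other filters, no trend, the 3′/5′ ratio as a covariate, the mean of probe sets, only the arrays compared, a replicate block and leaving out each array.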

Additional observations from a re-analysis of the deposited data

Results flagged for a closer look

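The change of ADH4, the zinc-responsive alcohol dehydrogenase gene, differed between experiments by interaction tests. The jhd2 deletion change minus the overexpression change was 1.47 ± 0.17 on the log2 scale (SE, limma adjusted p = 0.0021), and the set1 deletion change minus the overexpression change was 1.21 ± 0.19 (limma adjusted p = 0.0185). ADH4 gave 677.9, 694.8 and 706.4 in the jhd2 deletion, against 724.5, 895.3 and 711.0 in its wild type, and 777.9 and 802.9 in the set1 deletion, against 999.7 and 1108 in its wild type. In the overexpression experiment the strain was at 622.3 and 657.5, against 1966 and 1973 in its wild type. The first difference passed in all 14 fits that left out 1 array, with an adjusted p of up to 0.0253, and the second in 8 of 14, with an adjusted p of up to 0.121.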

How the results depend on the processing

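No gene of the set called with the main settings turned direction under any alternative. Some genes called only under an alternative had estimates on both sides of 0 when 1 array was left out. GPM2 spanned -0.06 to 1.80 for the SET1-experiment against the jhd2-experiment wild type. For the overexpression against the SET1-experiment wild type PYK2 spanned -0.15 to 1.34 and ALD4 -0.01 to 1.49. The share of all tested genes called moved with the setting too. In the overexpression strain it was 0.517%, against 17.6% with only the arrays compared and 12.9% without both replicate 3 arrays of the jhd2 experiment. For most other alternatives that share is not given here, so a moved count is not by itself a result about the set. Counts of called genes of the set moved as follows. In the overexpression strain, 0 were called, against 1 with the 3′/5′ covariate, 3 with only the arrays compared, 2 without both replicate 3 arrays of the jhd2 experiment, and 3 with the replicate block (GPP2, ADH2 and GPD1). Its 2 numbers correlated at -0.14, and with the pairing crossed, which was chosen after seeing the data, 3 were called. In the jhd2 deletion 13 were called without both replicate 3 arrays. The replicate block called 0 in the set1 and jhd2 deletions, and the SET1 numbers correlated at 0.73. For the jhd2 deletion change minus the overexpression change the counts were 1 with the covariate, 2 with the block, 2 with the pairing crossed and 6 without replicate 3. For the set1 deletion change minus the overexpression change they were 1, 2, 2 and 1. For the SET1-experiment against the jhd2-experiment wild type they were 0 with quantile normalization, with only genes above background on every array and with only the arrays compared, 2 with the covariate, 8 without replicate 3, and 0 to 1 leaving out 1 array. For the overexpression against the SET1-experiment wild type they were 3 with median centring, 4 with the covariate, 1 with only the arrays compared, 17 without replicate 3, and 0 to 4 leaving out 1 array. For the overexpression against the jhd2-experiment wild type 4 higher and 0 lower became 2 higher and 1 lower with quantile normalization, 3 and 1 with median centring, 4 and 1 with the covariate, 3 and 0 with no trend, 6 and 0 with only the arrays compared, 3 and 0 without replicate 3, and 1 to 6 in all leaving out 1 array. ADH5 lost its call without 1 overexpression wild-type array (adjusted p = 0.0584), PDC6 in 4 and ALD4 in 10 of 14 such fits. Medians of the set moved to 0.028 (jhd2 deletion), 0.12 and 0.072 (SET1-experiment and overexpression against jhd2-experiment wild type) and -0.035 (overexpression against SET1-experiment wild type) with quantile normalization. With median centring the overexpression wild-type medians were -0.22 (against the jhd2-experiment) and -0.44 (against the SET1-experiment wild type). Without replicate 3 they were 0.37 (jhd2 deletion), 0.35 and 0.029 (SET1-experiment and overexpression against jhd2-experiment wild type). Leaving out 1 array gave 0.14 to 0.30 for the jhd2 deletion, 0.12 to 0.35 for the SET1-experiment against the jhd2-experiment wild type, and -0.13 to 0.029 for the overexpression against the jhd2-experiment wild type. The cause was not tested. With 2 or 3 arrays a group, the dimmer genes with spreads above 0.5 are the least precise.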

Other observations

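TDH1 is also read by array control probe sets at its 3′ end, middle and 5′ end. In the overexpression strain against its wild type these gave log2 changes of 0.01, -0.40 and -0.29, and the main TDH1 probe set -0.02 ± 0.29. In the jhd2 deletion they gave 0.10, 0.22 and 0.09, against 0.10 ± 0.23 for the main probe set. In the overexpression wild type against the jhd2-experiment wild type they gave 0.15, 0.94 and 0.47, against 0.29 ± 0.26 for the main probe set. In the overexpression wild type against the SET1-experiment wild type they gave 0.06, 0.61 and 0.16, against 0.13 ± 0.29. In the set1 deletion they gave -0.12, -0.12 and -0.13, against -0.14 ± 0.29, and in the SET1-experiment wild type against the jhd2-experiment wild type 0.09, 0.33 and 0.32, against 0.16 ± 0.26.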
